A study of Homo sapiens with 10 samples.

Results

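The 30 genes described here encode the machinery that transcribes ribosomal RNA and processes it in the nucleolus. They were chosen as a named list and found in the gene table of 58870 genes by their symbols, 1 gene each. The samples were 10 mRNA libraries of LS180, an established human colorectal cancer cell line, in which RNASE1, the gene of a secreted ribonuclease, had been repressed by CRISPR interference. This method brings a repressor to a promoter with a guide RNA and leaves the DNA uncut. The groups were the 2 control lines NTC1 and NTC2, whose names mark non-targeting guides, and 3 lines with the RNASE1 guides sg1, sg2 and sg3. No group was given a drug, and each line had a library lettered A and a library lettered B. Nothing in the labels says whether the letters mark cultures, extractions or days, or whether the cells of a line came from 1 clone. The p-values therefore measure the spread between these libraries, which may be technical. For guide against NTC lines they measure the spread between lines, after A and B were summed. The question the lines put to these genes was whether repressing RNASE1 changes their mRNA; the letters, shared by all 5 lines, allow a second comparison.

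Ribosomal RNA is made in the nucleolus by RNA polymerase I (Pol I) from repeated genes. UBTF and the TAF1A-containing selectivity factor mark the promoter, and RRN3 brings the polymerase to it. The long transcript is then modified by small nucleolar ribonucleoproteins (snoRNPs), cut by a small subunit processome, and trimmed into the large subunit by a separate set of factors. Ribosomal proteins are added along the way, so a dividing cell makes both kinds of mRNA in quantity. In tumour cells of the gut this gene set is known as a target of MYC, whose binding motif is CACGTG. Ribosomal protein mRNAs instead often start with a C followed by a run of C or T bases, the terminal oligopyrimidine (TOP) tract, which places their translation under mTOR control.

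The start sites of some of the genes the results turn on are shown first, because the 2 kinds of start separate most members from most ribosomal protein genes. RefSeq windows of 300 bases on GRCh38.p14 were matched by symbol for 24 of the 30 members. Each line holds 15 bases before the annotated start and the first 15 bases of the transcript, 5′ to 3′, with the first 5 transcribed bases in capitals. RPL9, a ribosomal protein gene named later, is not printed, and its annotated start is an A and not a C.
NPM1, chr5:171387834-171387863, plus strand: cggggagcctgcgtcCTTTCcctggtgtga
FBL, chr19:39846365-39846394, minus strand: ccgcgcgcctgcgctCTTTTccacgtgcga
DDX21, chr10:68956155-68956184, plus strand: agggtggggaactacCTCTTcctctccacg
NCL, chr2:231464470-231464499, minus strand: tcagtctttcgcctcAGTCTcgagctctcg
UBTF, chr17:44220868-44220897, minus strand: cgcgtggggctcgccATTAGccgtcgctcc
MYBBP1A, chr17:4555370-4555399, minus strand: catgcgccgtgccctGACCTggaagcggct
RPLP0, chr12:120201097-120201126, minus strand: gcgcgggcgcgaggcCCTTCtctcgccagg
RPS14, chr5:150449725-150449754, minus strand: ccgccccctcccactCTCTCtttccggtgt

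A start of C followed by 4 bases that are each C or T, read on the transcribed strand only, was present in 3 of the 24 members (12.5%), namely NPM1, FBL and DDX21. A gene was counted if any of its windows held the motif. In NPM1 and DDX21 1 of 2 annotated windows held it, and that one is printed. The pyrimidine start was present in 47 of 63 ribosomal protein genes with a window (74.6%). It was present in 7.83% of 8458 genes at 5 CPM or more (CPM are counts scaled to library size, with TMM factors). Of all 27305 genes with a window 5.14% held it, as did 4.07% of all 35116 windows. The other motif searched was CACGTG, which reads the same on both strands. It lay in 11 of the 24 members (45.8%), in 4 of the 63 ribosomal protein genes and in 13.3% of the 8458 genes. Of all genes with a window 8.77% held it, as did 7.26% of all windows. The 5 windows below, 30 bases each, show it in capitals in members described later; in FBL it follows closely on the pyrimidine start.
NOP14, chr4:2963374-2963403, minus strand: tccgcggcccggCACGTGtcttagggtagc
MYBBP1A, chr17:4555340-4555369, minus strand: ggggccggagcaCACGTGtttcgtgtttcg
UTP20, chr12:101280083-101280112, plus strand: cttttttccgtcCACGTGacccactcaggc
WDR43, chr2:28894658-28894687, plus strand: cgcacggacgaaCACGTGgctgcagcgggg
FBL, chr19:39846356-39846385, minus strand: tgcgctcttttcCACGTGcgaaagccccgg
In UTP20 the motif lies just before the start, and in the others it lies within the transcript's first bases. A match is a description of these letters and shows no binding.

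All 30 genes were expressed in every library. Per kilobase of their longest annotated transcript, mean levels ran from 4.31 CPM for TAF1A, a subunit of the selectivity factor, to 862 CPM for NPM1, the nucleophosmin gene. NCL, encoding nucleolin, followed at 337 CPM per kilobase, and FBL, encoding the ribose methyltransferase fibrillarin, at 203. The remaining genes lay at 94.0 CPM per kilobase or less, led by NOLC1 and DDX21. Together the members took 0.624% to 0.655% of counts in the A libraries and 0.678% to 0.714% in the B libraries, without overlap. Library totals ran from 39026605 to 45050991 counts. RNASE1 itself lay at 16.4 to 23.7 CPM in the NTC libraries and at 1.02 to 3.75 CPM in the guide libraries. All 10 gut epithelial markers fixed for the label check had a mean above 1 CPM, as did 3 of 6 fibroblast markers and none of the 4 endothelial or 4 leukocyte markers. The fibroblast markers summed to at most 5.32 CPM, the leukocyte markers to at most 1.57 CPM and the endothelial markers to at most 0.358 CPM, and COL1A2, PTPRC and KDR were at 0 in every library.

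The largest differences among the members followed the letter and not the guide. In B libraries 13 of the 30 genes were higher than in A libraries and 1 was lower, by edgeR's quasi-likelihood test with the line as a term and Benjamini-Hochberg adjustment over 16411 genes at 0.05. The remaining 16 did not pass. The background was high, with 14.6% of all tested genes called higher in B and 15.0% called lower. Among genes with a mean of 5 CPM or more, as all members had, it was 19.8% and 21.6%. The members' median log2 ratio of B over A was 0.07, beside 0.0004 over all genes tested, and their ratios ran from -0.13 to 0.24. Every 95% interval lay within 1.5-fold, so these were small differences. The gut epithelial markers moved with the letter as well: they summed to 7726 to 7954 CPM in A and to 6285 to 7280 CPM in B, without overlap, with 3 of 10 called higher and 3, the keratins KRT8, KRT18 and KRT19, called lower. Fibroblast marker sums overlapped, at 3.83 to 4.93 CPM in A and 3.74 to 5.32 CPM in B, with 1 of 3 tested genes, LUM, called lower. Leukocyte marker sums were 0.944 to 1.57 and 0.721 to 1.00 CPM, and endothelial ones 0.0224 to 0.164 and 0.143 to 0.358 CPM. The part of these markers in the members' differences was not tested. In bulk RNA, fewer cells of a type and less RNA per cell cannot be told apart.

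The genes of abundant nucleolar proteins rose most often, 5 of 6. NCL, an RNA-binding protein of the nucleolus that assists rRNA transcription and early processing, stood at 1249, 1157, 1291, 1308 and 1273 CPM in the A libraries of NTC1, NTC2, sg1, sg2 and sg3, and at 1449, 1502, 1414, 1479 and 1483 CPM in their B libraries. Every B library exceeded every A library. The log2 ratio was 0.22 (SE 0.03, edgeR adjusted p = 0.000171, higher in 5 of 5 lines).
MYBBP1A, a nucleolar Myb-binding protein, had 150, 151, 163, 156 and 166 CPM in A and 184, 182, 182, 192 and 183 CPM in B in the same order of lines. NOLC1, a chaperone of snoRNPs, had 335, 327, 350, 353 and 352 CPM in A and 412, 410, 385, 397 and 408 CPM in B. Both sets of libraries were fully separated, with log2 ratios of 0.23 for each gene (edgeR adjusted p = 0.000134 for MYBBP1A and 0.000135 for NOLC1). GNL3, the GTPase nucleostemin, rose by 0.12 and DDX21, an RNA helicase, by 0.09 on the log2 scale. The adjusted p of DDX21 was 0.0468, and its call was lost without line NTC1, NTC2, sg2 or sg3. Leaving out either library of such a line removed the same letter difference and lost the call as well. Without NTC2 B, for instance, its adjusted p was 0.122. The call of GNL3 was lost without either library of NTC1 or of sg3, with adjusted p from 0.0512 to 0.0614.

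NPM1, the most abundant member, did not move with its neighbours in this group. Its A libraries held 1619, 1511, 1481, 1559 and 1474 CPM and its B libraries 1468, 1657, 1457, 1446 and 1488 CPM. The letters overlapped, B was lower in 3 lines and higher in 2, and the log2 ratio was -0.03 (95% interval -0.10 to 0.05, edgeR adjusted p = 0.622). Its 45 annotated pseudogenes, matched by name, held 1.30% as many counts as the gene, and those of RRN3 held 4.4%. How many reads fit both a gene and its pseudogenes cannot be read from these counts.

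**Figure D1:**
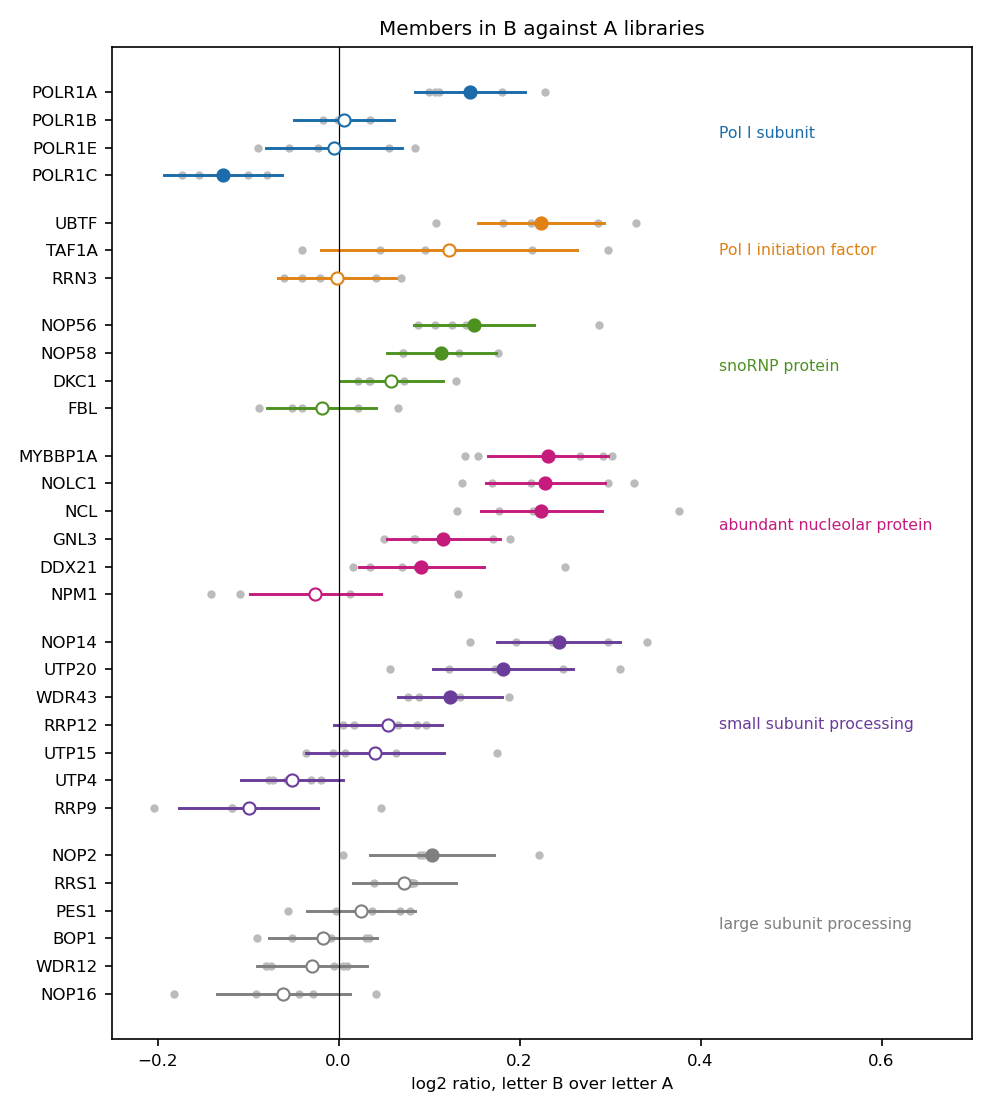
Each row is 1 of the 30 members, grouped by role; the x axis is the log2 ratio of B over A libraries. Large points are edgeR estimates with 95% intervals, filled where the adjusted p was under 0.05, and grey points are the 5 lines. 13 filled points lie right of 0 and 1, POLR1C, lies left.

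Of the Pol I subunits, POLR1A rose and POLR1C fell. POLR1A, the catalytic subunit, stood at 148, 150, 153, 154 and 155 CPM in A and at 173, 170, 164, 166 and 167 CPM in B, again in the order NTC1, NTC2, sg1, sg2 and sg3. The libraries were separated by letter (log2 ratio 0.15, SE 0.03, edgeR adjusted p = 0.0017). POLR1C, a subunit shared with RNA polymerase III, went the other way, at 50.7, 52.0, 50.5, 50.1 and 48.7 CPM in A and 47.3, 46.1, 47.8, 45.0 and 44.4 CPM in B. Here every B library lay below every A library. Its log2 ratio was -0.13 (SE 0.03, edgeR adjusted p = 0.00636). POLR1C overlaps YIPF3 on the opposite strand, which held 40385 counts beside its own 20503, and the library kit as described does not mark strand. Opposite-strand neighbours with counts overlap 14 members in all, and in 8 the largest neighbour held at least 10% as many counts as the member. Besides POLR1C these were RRN3, NOP16, UTP4, GNL3, MYBBP1A (SPNS2, 27658 beside 72599), UTP15 (ANKRA2, 3560 beside 20239) and TAF1A (TAF1A-AS1, 626 beside 3599). The share was 8.24% in NOP14 (NOP14-AS1, 4004 beside 48605) and lower in PES1, WDR12, UBTF, BOP1 and RRP12. Reads in the shared stretches cannot be told apart by strand. POLR1B and POLR1E, other subunits of the enzyme, had ratios of 0.01 and -0.005 and did not pass.

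Among the initiation factors, UBTF, the architectural protein that keeps rRNA genes open, stood at 155, 154, 172, 167 and 168 CPM in A and at 194, 188, 185, 189 and 195 CPM in B. The letters did not overlap (log2 ratio 0.22, SE 0.03, edgeR adjusted p = 0.000227). The difference was 0.33 in NTC1 and 0.29 in NTC2, and 0.11, 0.18 and 0.21 in sg1, sg2 and sg3. RRN3, which joins Pol I to the promoter, had a ratio of -0.002 and TAF1A one of 0.12 with an SE of 0.07; neither passed. TAF1A was the least abundant member, at 7.48 to 9.28 CPM.

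**Figure D2:**
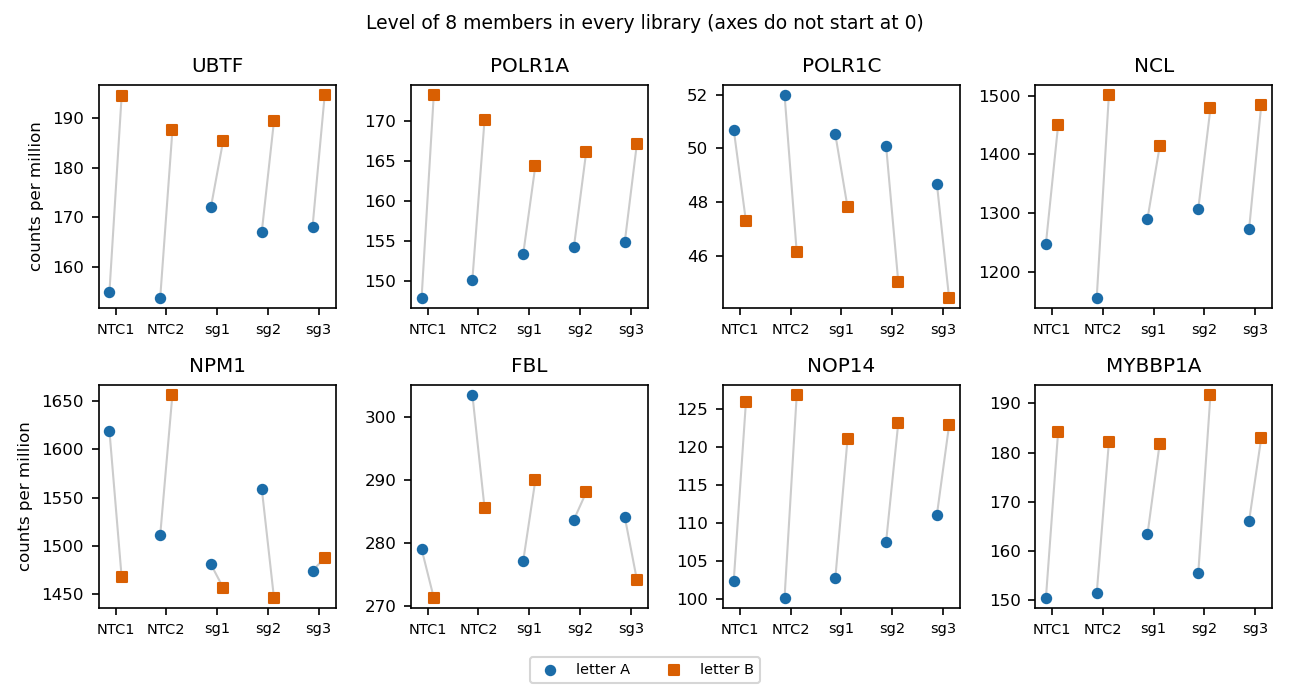
CPM of 8 members in each line, with circles for A and squares for B joined within a line; each y axis has its own range and does not start at 0. UBTF, POLR1A, NCL, NOP14 and MYBBP1A have all 5 squares above all 5 circles, POLR1C has all 5 below, and NPM1 and FBL mix.

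The snoRNP proteins were divided. NOP56 and NOP58, the paired scaffold proteins of box C/D particles, rose by 0.15 and 0.11 on the log2 scale (edgeR adjusted p = 0.0026 and 0.00756). FBL, the methyltransferase of the same particles, stood at 279, 304, 277, 284 and 284 CPM in A and at 271, 286, 290, 288 and 274 CPM in B. Its letters overlapped and its ratio was -0.02 (SE 0.03, edgeR adjusted p = 0.667). DKC1, the pseudouridine synthase of box H/ACA particles, had every B library above every A library, at 212 to 227 against 208 to 209 CPM, yet its ratio of 0.06 missed the threshold (edgeR adjusted p = 0.114).

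In the small subunit processome 3 of 7 genes rose. NOP14, a processome component, had the smallest p of all members, with 102, 100, 103, 108 and 111 CPM in A and 126, 127, 121, 123 and 123 CPM in B. The letters were separated (log2 ratio 0.24, SE 0.03, edgeR adjusted p = 0.00011). UTP20 rose by 0.18 and WDR43 by 0.12 on the log2 scale, also with separated letters. UTP4 and UTP15, which belong with WDR43 to the subcomplex that first binds the nascent transcript, had ratios of -0.05 and 0.04 and did not pass. RRP9, the protein of the U3 snoRNP, was at -0.10 with an edgeR adjusted p of 0.0510. It passed without line sg1 (-0.13, edgeR adjusted p = 0.00824). It also passed without either library of sg1, which removes that line's letter difference as well. RRP12 was at 0.05.

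Of the 6 large subunit factors only NOP2, a methyltransferase of the large rRNA, passed, at 0.10 (edgeR adjusted p = 0.0247). Its call was lost without either library of NTC1 (adjusted p = 0.131) and without either library of sg2 (0.0633 and 0.0627). PES1, BOP1 and WDR12, which form the PeBoW complex, had ratios of 0.02, -0.02 and -0.03, and their intervals all crossed 0. NOP16 was at -0.06 and RRS1 at 0.07, with edgeR adjusted p of 0.207 and 0.0534.

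Counted without a model, 12 members had every B library above every A library and 1 had every B library below. Over all tested genes these patterns were found in 9.65% and 9.59%. Across 26 alternative settings 8 of the 14 called members stayed called in each, namely NCL, MYBBP1A, NOLC1, UBTF, NOP14, NOP56, UTP20 and WDR43. In none of the 14 did the direction turn. Of these settings 15 left out a line or 1 of its libraries, and those for the same line largely repeat each other.

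Of the other genes of the pathway, a further list of 103, 20 were called higher in B (19.4%) and 11 lower (10.7%). The backgrounds were 14.6% and 15.0% of all tested genes, and 19.8% and 21.6% of genes at 5 CPM or more. The list's median ratio was -0.01 and its mean 0.02, and the mean log2 CPM of the list was higher in B in 4 of 5 lines. With a trend over transcript length removed in each library, 26 of the list were higher and 13 lower, with a median of 0.01. In that fit 13.5% of all tested genes were called higher and 13.1% lower. No test set this list against the members. GNL3L, a nucleostemin relative, rose by 0.37, NOL9, a kinase of pre-rRNA ends, by 0.37 and GNL2, a large subunit GTPase, by 0.26 (edgeR adjusted p at most 3.3e-05). NHP2, a core protein of box H/ACA particles, was at -0.15, as were EMG1, a small subunit methyltransferase, and NIFK (edgeR adjusted p = 0.000881, 0.000958 and 0.00309). The 3 most abundant were NOC2L at -0.02, RSL1D1 at 0.14 and SNU13 at -0.08, of which RSL1D1 passed.

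The mRNAs of cytosolic ribosomal proteins went the opposite way to the members. Of 79 genes 58 were lower in B and none higher, with a median log2 ratio of -0.13. The backgrounds were 15.0% and 14.6% of all tested genes, and 21.6% and 19.8% of genes at 5 CPM or more. Ribosomal protein genes have many near-identical pseudogenes, which makes single counts uncertain. By DESeq2 63 were lower and 0 higher. By edgeR 2 of the 79 had positive ratios, 0 of them at an unadjusted p under 0.05. RPS2 stood at 3790 to 4265 CPM in A and 3395 to 3676 CPM in B, and RPLP0 at 3157 to 3573 and 2739 to 2929 CPM. Both were separated by letter, with ratios of -0.16 and -0.21, while RPL4 was at -0.04 and did not pass. The smallest p were those of RPS15A (-0.28), RPS14 (-0.22) and RPL9 (-0.22). A list of 22 further TOP mRNAs, translation factors for the most part, had 9 of 21 tested genes lower and 1, PABPC1 at 0.15, higher.

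As a single value per library, the mean log2 CPM of the members minus that of the ribosomal protein genes was -2.82, -2.88, -2.78, -2.76 and -2.77 in the A libraries of NTC1, NTC2, sg1, sg2 and sg3. In the B libraries it was -2.55, -2.59, -2.67, -2.61 and -2.61. Every B library was above every A library. The shift from A to B averaged 0.20 (SD 0.08 over 5 lines) and was 0.27 in NTC1, 0.29 in NTC2, 0.11 in sg1, 0.15 in sg2 and 0.16 in sg3. The mean log2 CPM itself moved by 0.07 for the members and by -0.13 for the ribosomal protein genes. Without NPM1 and NCL the shift was 0.19, and on summed CPM it was 0.22. For the further list of 103 pathway genes, whose own mean moved by 0.02, the shift against the ribosomal protein genes was 0.15. That difference rose in 5 of 5 lines, from at most -3.64 in A to at least -3.61 in B. The full separation by letter was thus not particular to the members.

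**Figure D3:**
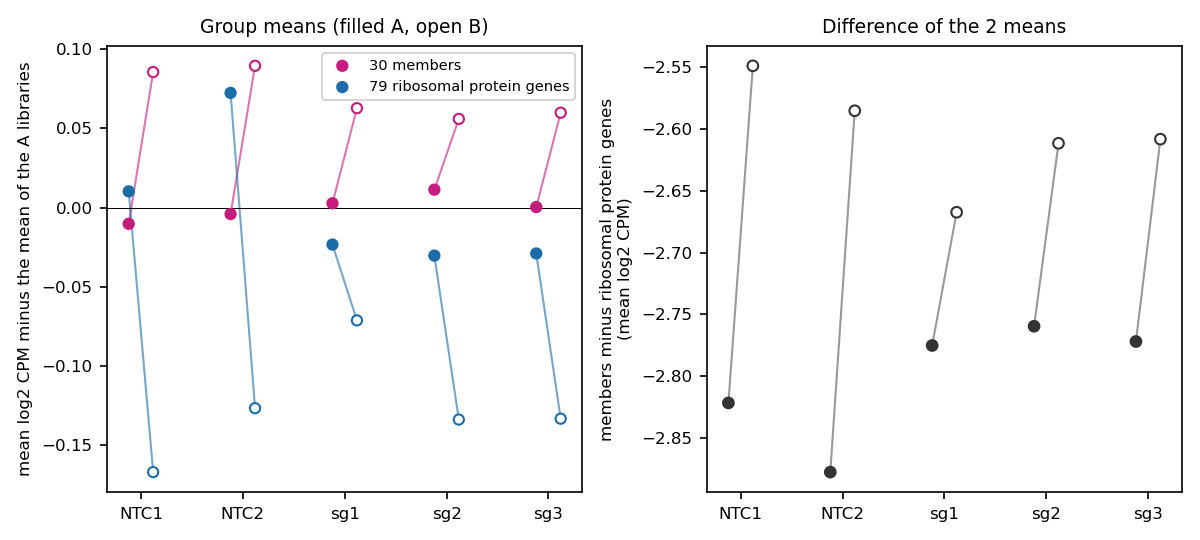
Left, mean log2 CPM of the 30 members and of 79 ribosomal protein genes in each library, less the mean of the A libraries; right, members minus ribosomal protein genes. Filled points are A and open points B. The right panel rises from A to B in all 5 lines, most in NTC1 (0.27) and NTC2 (0.29).

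The 3 members with a pyrimidine start had a median ratio of -0.02, beside 0.10 for the 21 members with a window and no such start. Their median transcript lengths also differed, at 1758 and 3538 bases. With the trend over length removed, NPM1, FBL and DDX21 stood at 0.04, 0.06 and 0.07, beside a median of 0.06 for all members. Over all 8458 genes the medians were -0.03 with such a start and -0.01 without. Leaving out ribosomal protein and other TOP genes, they were -0.019 (601 genes) and -0.009 (7779 genes). Members with CACGTG had a median of 0.10 (11 genes) and those without 0.04 (13 genes), and over all genes the medians were -0.002 and -0.01. Of the 11 called-higher members with a window, 7 held CACGTG, and of the 13 others 4 did. These are descriptions of small groups, with no test.

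The letter difference went with transcript length. Over 10751 genes at 5 CPM or more, Spearman's rho between the log2 ratio and the length of the longest annotated transcript was 0.40, and within the members it was 0.39; genes are not independent replicates, and all share the same libraries. With these genes in 5 equal groups by length, 5.11% were called higher in B and 38.0% lower in the shortest group, up to 2148 bases, and 42.6% and 8.74% in the longest, from 5960 bases. Ribosomal protein genes had a median of 1857 bases and members one of 3306, against 3694 for all genes. Called-higher members had a median of 3967 bases and the other members 2444. In the shortest group the 8 members had a median ratio of 0.03 and the 49 ribosomal protein genes one of -0.14, where all genes stood at -0.08.

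With a length trend removed in each library, a fit added after the relation was seen, 14 members were higher and 2 lower, with a median of 0.06. Of all tested genes 13.5% were called higher and 13.1% lower in this fit, and rho fell to 0.01. The shift of members against ribosomal protein genes was then 0.15. POLR1A, whose longest transcript has 12749 bases, lost its call (log2 ratio 0.03, edgeR adjusted p = 0.415), as did DDX21 (0.07, adjusted p = 0.0889). NCL, NOLC1, NOP14, MYBBP1A and UBTF stood at 0.22, 0.22, 0.25, 0.21 and 0.19. RRS1 and DKC1 passed in this fit at 0.14 and 0.08, TAF1A did at 0.18 (adjusted p = 0.04996), and WDR12 passed on the lower side at -0.11. Ribosomal protein genes lower in B numbered 40, with 2 higher and a median of -0.07. What sets the length trend was not tested.

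**Figure D4:**
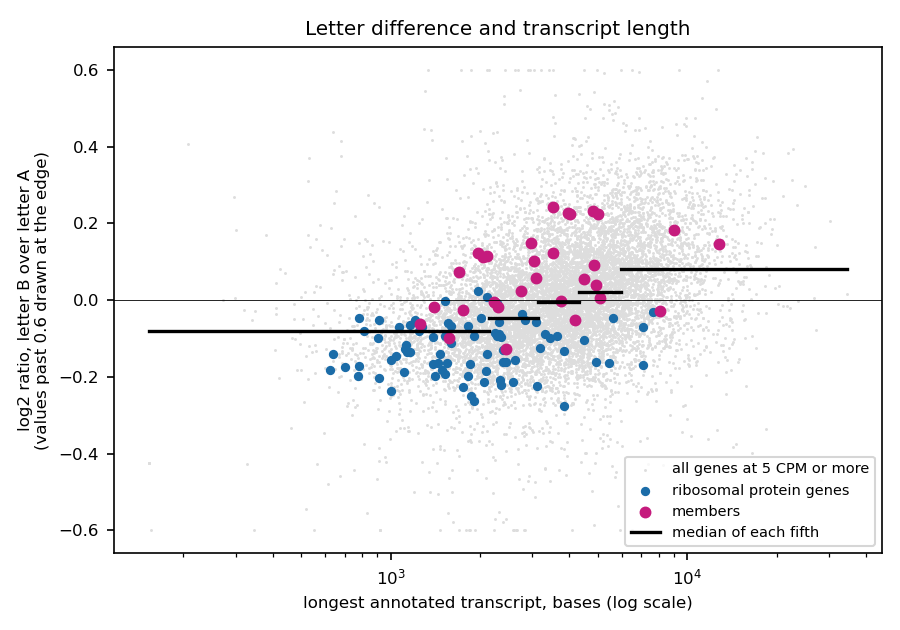
Each point is a gene at 5 CPM or more, with longest transcript length on a log x axis and the log2 ratio of B over A on the y axis; black bars are the medians of 5 equal groups by length. The medians climb from -0.08 to 0.08, and most members lie above the ribosomal protein genes of similar length.

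In guide against NTC lines no member passed by edgeR, and NPM1 passed by DESeq2. With A and B summed per line, edgeR called 0 of the 30 genes in 3 guide lines against 2 NTC lines, beside a background of 4 of 17337 genes, or 0.0231%. An unadjusted p under 0.05 was found for 1 of the 30 (NPM1) and for 7.99% of all tested genes. DESeq2 called 1 of the 30 (NPM1 again) and 70 of the 4192 genes to which it gave an adjusted p, or 1.67%. It gave none to POLR1C, POLR1E, TAF1A and UTP15, so these members could not be called. The members' median log2 ratio of guide over NTC lines was -0.01, and the 30 intervals ran from -0.23 to 0.12, all within 1.5-fold.

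NPM1 had the smallest p on the lower side. With the counts of both letters summed, its level was 1541 and 1579 CPM in NTC1 and NTC2 and 1467, 1505 and 1483 CPM in sg1, sg2 and sg3. All guide lines lay below both NTC lines, and the log2 ratio was -0.07 (SE 0.02, edgeR adjusted p = 0.473). DESeq2 gave -0.07 with an adjusted p of 0.0475. Single libraries overlapped, since NTC1 B at 1468 CPM was below sg2 A at 1559 CPM. The ratio was -0.04 without NTC1 A and -0.11 without NTC1 B, and edgeR's adjusted p over all alternatives was at least 0.109. On the higher side MYBBP1A came first, at 168 and 166 CPM in the NTC lines and 172, 173 and 175 CPM in the guide lines (log2 ratio 0.05, edgeR adjusted p = 0.647). NCL was at 0.04, UBTF at 0.05, POLR1A at -0.005 and FBL at -0.01, and none passed.

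**Figure D5:**
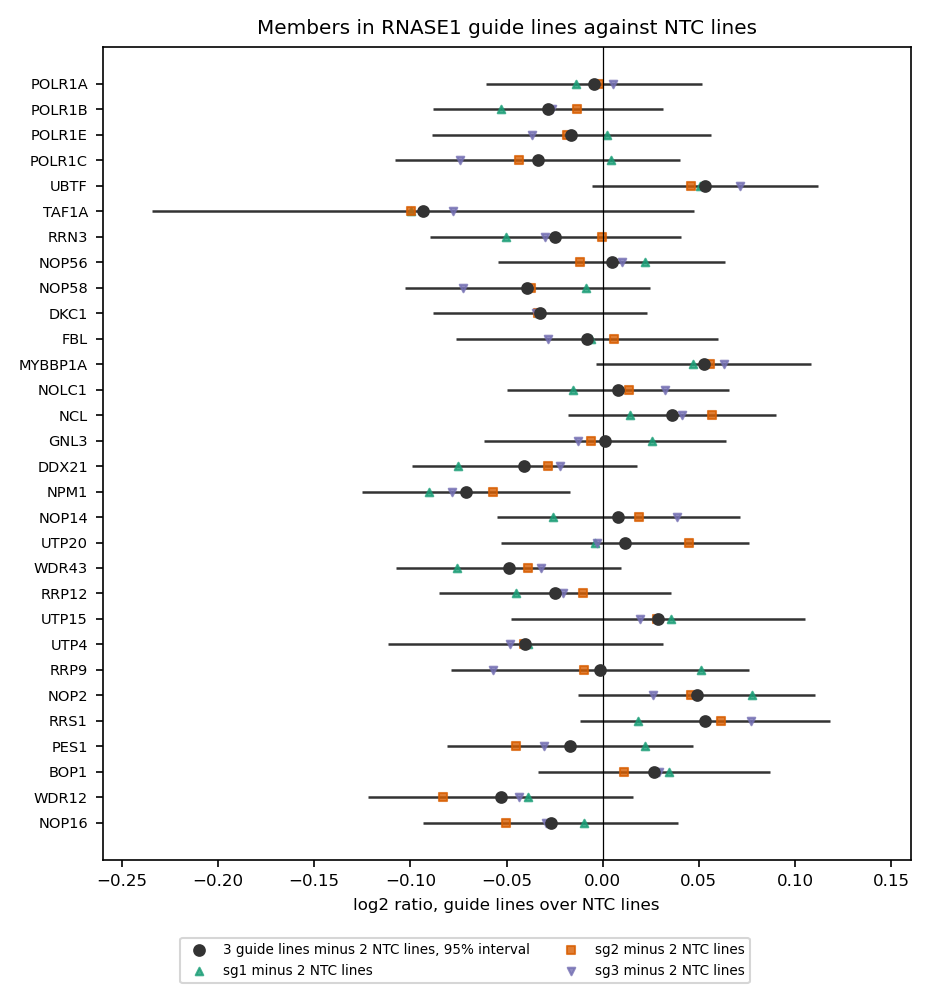
Each row is 1 member; the x axis is the log2 ratio of guide over NTC lines. Black points are the 3 guide lines together with 95% intervals, and coloured marks are sg1, sg2 and sg3 alone. Only the interval of NPM1 (-0.13 to -0.02) misses 0.

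Taken singly against both NTC lines, sg1, sg2 and sg3 each gave 0 called members by edgeR and by DESeq2 and 0 at an unadjusted p under 0.05, with backgrounds of 0.00609% in each, the 1 called gene of 16411. The members' medians were -0.01, -0.01 and -0.02. The smallest p on each side belonged to NPM1 (-0.09) and NOP2 (0.08) in sg1, to WDR12 (-0.08) and RRS1 (0.06) in sg2, and to NPM1 (-0.08) and RRS1 (0.08) in sg3. The edgeR adjusted p was 1.00 for each. These fits share their NTC libraries. Their median SE for a member was 0.07 on the log2 scale. That spread includes the letter difference shared by the lines; with the letter as a term the median SE was 0.04 in each contrast and 0 members were called.

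The 3 guides did not differ detectably from each other in any member. By edgeR's test over the 3 lines 0 members passed and 0 had an unadjusted p under 0.05, and the smallest p was 0.477, for RRP9; the background was 0% of 16411 genes. Between NTC2 and NTC1 the count was likewise 0 by edgeR and by DESeq2, with 0 at an unadjusted p under 0.05 and a background of 0%. The smallest p on each side belonged to UTP4 at 0.11 and UTP15 at -0.09 (edgeR adjusted p = 1 for both), beside the -0.07 of NPM1 between guide and NTC lines. TAF1A had the widest contrast, also 0.11 but with an SE of 0.12. Both comparisons were fitted without the letter as a term, so their spread includes the letter difference. With that term, the members' median SE for NTC2 against NTC1 was 0.05 in place of 0.08. In that fit 2 members had an unadjusted p under 0.05, beside 5.07% of all tested genes. With the letter as a term 0 members were called in either comparison.

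Within a letter the guide and NTC lines stood apart for several members, in directions that changed with the letter. Among A libraries all 3 guide lines lay above both NTC lines for 9 members, including UBTF, NCL, POLR1A and NOP14, and below for POLR1C and TAF1A. The backgrounds were 13.7% above and 12.3% below. Among B libraries the guide lines lay above for BOP1 and RRS1 and below for 10, including POLR1A, NOP14, UTP20 and NOLC1, against backgrounds of 11.3% and 11.1%. No member was on the same side in both letters, and 4 were above in A and below in B, patterns not counted over all genes.

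For such genes the rise from A to B had a larger value in NTC than in guide lines, but the test of that difference called none. The interaction of letter and arm gave 0 members by edgeR and by DESeq2 and 5 at an unadjusted p under 0.05, against a background of 0% called and 5.73% of all genes at that unadjusted p. The 5 were NOLC1, UTP20, UBTF, NOP14 and NCL, whose log2 ratios in guide lines minus those in NTC lines were -0.14, -0.16, -0.14, -0.13 and -0.12 (edgeR adjusted p = 0.866 for each). On the positive side FBL came first, at 0.08 (edgeR adjusted p = 0.901).
For the ribosomal protein genes all 79 interaction ratios were positive, with a median of 0.11; 0 passed by edgeR or by DESeq2 and 42 had an unadjusted p under 0.05. Their median letter ratio was -0.20 in NTC lines alone and -0.08 in guide lines alone, where 56 and 38 were called lower. Averaged over both letters, members minus ribosomal protein genes stood at -2.69 and -2.73 in the NTC lines and at -2.72, -2.69 and -2.69 in sg1, sg2 and sg3. The guide and NTC means differed by 0.01, less than the SD of 0.03 between the 2 NTC lines.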

How the data were processed

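The authors deposited 1 table of RSEM expected counts per gene, per the file's name, with 1 column for each of the 10 libraries; the labels' protocols describe capture of polyadenylated RNA and random-primed cDNA without a strand mark. The submitters' processing notes name hg38, CASAVA 1.8.2, TopHat2 2.0.8 and FastQC 0.11.2, with roles not given; no annotation release or strand setting is given in the sources used here. In the deposited expected counts 7.12% of values were not whole, and these were rounded. Depth was 39026605 to 45050991 counts per library, and the number of libraries limits precision.

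Counts were tested with edgeR 4.0.16 in R 4.3.3 (filterByExpr, TMM scaling, quasi-likelihood F test, two-sided, Benjamini-Hochberg over all tested genes, threshold 0.05), with DESeq2 1.42.0 as an alternative. The letter fit held 5 line means and the letter. The arm fit compared lines after summing A and B; each guide, the guides among themselves, and NTC2 against NTC1 were contrasts of 5 line means, and the interaction added letter by arm. CPM are TMM-scaled; log2 CPM used a prior count of 2. Lengths and GC content are those of the longest GENCODE 29 transcript, the members' levels per kilobase included. The fits were tried on simulated data with a common mean per gene and added changes. Those data held no other line or letter differences, so they do not show how the fits perform on these libraries. Alternatives were the scaling, the low-count filter, GC and length corrections, the replicate block, and leaving out libraries and lines.

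The members and lists were chosen with earlier results of these data known. Values in every library were given for UBTF, POLR1A, NPM1, NCL and FBL, and for up to 5 called members per direction with the smallest p in the letter comparison. In each other comparison the member with the smallest p per direction was named, where none passed. Of the ribosomal protein and further pathway genes, the 3 most abundant and up to 3 per direction with the smallest p were named; other genes were named after their values were seen.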

Additional observations from a re-analysis of the deposited data

Results flagged for a closer look

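Among 62 groups of 5 libraries with the same letter (30 members in A and in B, and the members minus ribosomal protein genes), 6 held a library set apart from the other 4 by more than Dixon's critical value of 0.710; chance flags about 1 in 20 groups. In A libraries NTC2 had the highest FBL, at 304 CPM against 277 to 284 CPM, and the highest UTP4, at 114 against 106 to 108 CPM. In B libraries NTC2 had the highest NPM1, at 1657 CPM against 1446 to 1488 CPM. The sg2 B library had the lowest UTP15, at 47.4 against 48.4 to 48.8 CPM, and the highest MYBBP1A, at 192 against 182 to 184 CPM. The sg1 B library had the highest RRP9, at 59.9 against 52.5 to 54.6 CPM.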

How the results depend on the processing

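Of the 14 calls by letter, 8 held in each of 26 partly overlapping alternatives and none turned. Members lower in B numbered 2 with no count filter, at 5 CPM or more, with GC, length, or length and GC correction, without the line term and without line sg1, and 0 with NTC lines alone or guide lines alone; leaving out single libraries gave 1 to 2. In guide lines alone 38 ribosomal protein genes were lower and 2641 genes were called. The members' median was 0.0892 on library totals alone, and the ribosomal protein median -0.20 in NTC lines alone. In guide against NTC lines 252 genes were called with no filter, 7 at 5 CPM or more, 70 by DESeq2, which called 1 member, 11 with A libraries alone, and 27, 10, 7 and 13 without NTC1, sg1, sg2 and sg3. Single libraries left out gave 1 to 12 genes and member medians from -0.0368 to -0.000672, in fits that unbalance the letters; the medians were -0.00415 in A and -0.0287 in B libraries alone. The cause of these changes was not tested.

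The letter correlated deviations from line means in 8 of 10 pairs of lines by over 0.1 over all tested genes (r from 0.06 to 0.19) and in 10 of 10 at 10 CPM or more. Because the labels do not say what a letter shares, the block is given here only. With the letter as a replicate block, 0 members were called in any guide contrast, and guide against NTC lines called 2 genes with libraries as samples, 9 with line means, and 21 with the length correction as well. For sg1, sg2 and sg3 the block called 6, 2 and 6 genes and DESeq2 4 each, where the fits without it called 1 each; with no count filter they called 69, 95 and 86. Differences among guides called 8 genes with the block and 141 with no filter, and NTC2 against NTC1 called 2 with the block and 57 with no filter.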

Other observations

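Of 11 genes of MYC and its partners, regulators of this pathway, 3 were called higher in B (27.3%) and 2 lower (18.2%), beside 14.6% and 15.0% of all tested genes and 19.8% and 21.6% of those at 5 CPM or more. Higher were MYC at 0.12, MNT at 0.29 and MGA at 0.15 on the log2 scale, and lower were MAX at -0.16 and MLX at -0.13 (edgeR adjusted p at most 0.00536). MYC, the transcription factor, stood at 345 to 356 CPM in A and 369 to 392 CPM in B. MAX, its obligate partner, stood at 59.1 to 61.7 and 51.1 to 55.7 CPM. With guides, 0 of the 11 passed by edgeR, and 2 had an unadjusted p under 0.05, as did 7.99% of all tested genes.

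Reads assigned to the rRNA genes of the 5.8S class, which the capture of polyadenylated RNA should mostly remove, made up 38.4, 34.6, 36.8, 30.2 and 33.5 CPM in the A libraries of NTC1, NTC2, sg1, sg2 and sg3. They made up 21.9, 27.9, 32.5, 29.5 and 18.8 CPM in the B libraries. B was lower in each of the 5 lines, and the letters overlapped across lines.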
